A study of Mus musculus with 6 samples.

Results

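The genes described here are 10 members of the NRF2 pathway, taken by symbol from a table of 35275 genes measured by bulk RNA sequencing of mouse tongue: Nfe2l2, Keap1, Nqo1, Hmox1, Gclc, Gclm, Txnrd1, Srxn1, Slc7a11 and Osgin1. Each matched 1 row, and all 10 reached a mean of 1 FPKM (fragments per kilobase of gene length, scaled to the reads of the library), the level required for testing, as did 12144 genes in all. The libraries came from 3 samples with the genotype Aim2 KO, which lack the cytosolic DNA sensor Aim2, and 3 wild type samples (WT), numbered 1 to 3 in each group. Mice of both genotypes had received 4NQO (4-nitroquinoline 1-oxide, a carcinogen that produces squamous lesions of the tongue) at 100 µg/ml in their drinking water for 20 weeks, so no library is free of the carcinogen and its own effect on these genes cannot be read here. The sources used here do not give the strain, sex and age, the exons removed in the knockout or whether each library is 1 mouse. All library names of a genotype begin with the same digits, a different set for each genotype, so whatever these stand for and the genotype cannot be told apart. P-values therefore reflect the spread among these 6 libraries, which may be technical.

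NRF2, the product of Nfe2l2, is a transcription factor that is held in the cytoplasm and passed to degradation by KEAP1, an adaptor of a ubiquitin ligase whose reactive cysteines sense electrophiles and oxidants. When KEAP1 is modified, NRF2 accumulates, pairs with a small MAF protein and binds antioxidant response elements near genes of quinone reduction, glutathione synthesis, thioredoxin recycling and heme breakdown. In squamous epithelium this pathway is known both as a defence against chemical carcinogens and as a pathway that squamous carcinomas often activate. NQO1 has a further role in this model, because it reduces 4NQO to the hydroxylamine that forms DNA adducts.

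The libraries held between 21959204 and 25369400 reads assigned to genes. Aim2 itself was at 0.047 to 0.16 FPKM in Aim2 KO and at 0.20 to 0.42 FPKM in WT, which rested on 3 to 10 reads against 14 to 30. Markers of stratified oral epithelium, the layer that lines the tongue, summed to 35534 to 49112 FPKM and markers of skeletal muscle to 8316 to 16544 FPKM, with none of either list at 0 in all libraries. Aim2 KO replicate 1 held the least muscle signal (8316 FPKM, against 14013 to 16544 FPKM in the other 5 libraries) and the most epithelial signal. The summed level of 12 pan-leukocyte markers ran from 56.9 to 83.3 FPKM in Aim2 KO and from 31.2 to 36.8 FPKM in WT, without overlap.

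The pathway's transcripts were abundant in these tongues, and the levels of each member overlapped between the genotypes. Nqo1, Nfe2l2 and Gclc had mean levels above 100 FPKM over the 6 libraries, higher than 95.4% to 97.0% of the tested genes, and 8 of the 10 members lay above 80.8% to 97.0% of them. None of the 10 members passed the test of Aim2 KO against WT (limma, adjusted p under 0.05), where 1 of the 12144 genes did (0.00823%; Wdfy1, named after its value was seen), and 0 of 10 had an unadjusted limma p under 0.05, where 2.5% of all tested genes did. With voom on recovered read counts also 0 members passed. The groups overlapped for every member, and 6.46% of all tested genes had groups that did not overlap. At shares this low, 0 of 10 does not set the members apart from other genes. In these bulk libraries fewer cells of a type and less RNA per cell cannot be told apart.

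**Figure D1:**
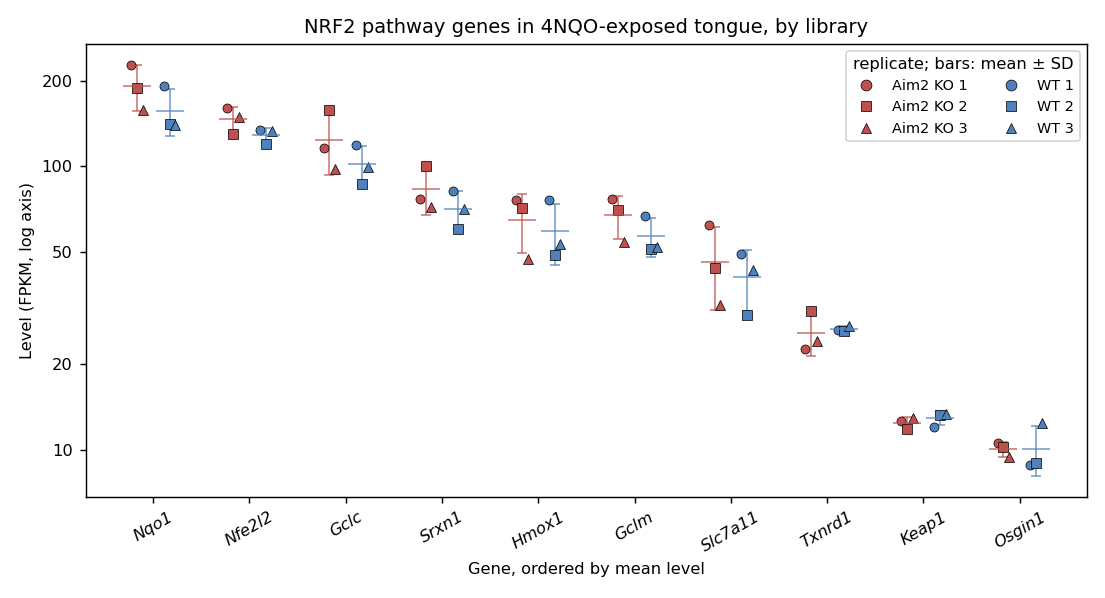
Level of each of the 10 genes (FPKM, log axis) in the 6 libraries, ordered by mean level, with Aim2 KO in red and WT in blue. Symbols mark the replicate and horizontal bars with whiskers the mean ± SD of 3 libraries; the red and blue symbols overlap for every gene, from Nqo1 at 139 to 228 FPKM down to Osgin1 at 8.87 to 12.4 FPKM.

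Nfe2l2 (ENSMUSG00000015839; chromosome 2, 75675513 to 75704641, minus strand; coordinates here and below are those of the deposited table, read as GRCm38) encodes NRF2. In Aim2 KO its level was 161, 130 and 149 FPKM and in WT 134, 120 and 134 FPKM, given here and below in the order of replicates 1, 2 and 3. Aim2 KO replicates 1 and 3 lay above all WT libraries, whereas Aim2 KO replicate 2 lay within the WT range. The means were 146 ± 15.7 and 129 ± 7.76 FPKM (SD, n = 3 each), and the log2 difference, Aim2 KO minus WT on the log2(FPKM + 1) scale used throughout, was 0.18 (95% interval -0.12 to 0.47, limma adjusted p = 0.9998). It was 0.11 without Aim2 KO replicate 1.

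Keap1 (ENSMUSG00000003308; chromosome 9, 21229730 to 21239332, minus strand), the gene of the NRF2 repressor, was the least variable member. It was at 12.6, 11.9 and 13.0 FPKM in Aim2 KO and at 12.1, 13.3 and 13.4 FPKM in WT, so that its highest value was 1.13 times its lowest. The log2 difference was -0.05 (95% interval -0.27 to 0.18, limma adjusted p = 0.9998). Nfe2l2 transcript exceeded that of Keap1 per unit length by 12.7, 10.9 and 11.5 times in Aim2 KO and by 11.1, 9.06 and 9.96 times in WT, with the 2 groups overlapping. Keap1 shares 510 exon bases with an antisense gene, Gm16754, whose level was 0.082 FPKM.

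Nqo1 (ENSMUSG00000003849; chromosome 8, 107388225 to 107403206, minus strand), which encodes NAD(P)H quinone dehydrogenase 1, had the highest mean level of the 10 members. It was at 228, 189 and 157 FPKM in Aim2 KO and at 191, 141 and 139 FPKM in WT. All 3 Aim2 KO libraries exceeded the WT mean, but WT replicate 1 lay above Aim2 KO replicates 2 and 3. The means were 192 ± 35.6 and 157 ± 29.6 FPKM, a ratio of 1.22. Its log2 difference of 0.28 was the most positive among the members (95% interval -0.15 to 0.72, limma adjusted p = 0.9998), and its p ranked 1188 among the 12144 genes. These levels rested on 5310 to 7997 reads a library. The difference was 0.15 without Aim2 KO replicate 1, 0.43 without WT replicate 1 and 0.03 with array quality weights, and its adjusted p was 0.912 to 1 over all settings tried.

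**Figure D2:**
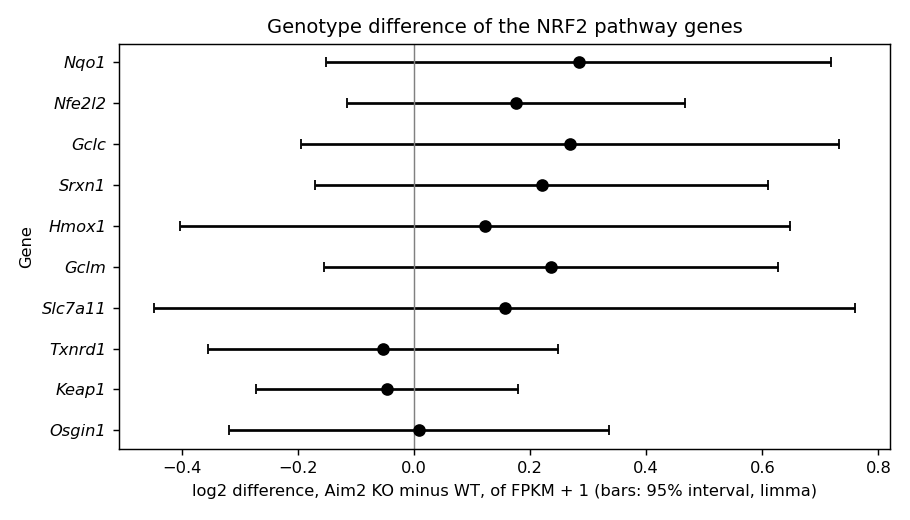
Log2 difference of each member, Aim2 KO minus WT, of FPKM + 1 (points) with its 95% interval from limma (bars), 3 libraries a group. All 10 intervals cross 0; the point estimates run from -0.05 for Txnrd1 to 0.28 for Nqo1.

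The 3 glutathione genes come next. Slc7a11 (ENSMUSG00000027737; chromosome 3, 50364936 to 50443613, minus strand) encodes the light chain of the cystine and glutamate exchanger that supplies cysteine for glutathione. It was the most variable member, at 62.2, 43.8 and 32.4 FPKM in Aim2 KO and 49.2, 29.99 and 43.0 FPKM in WT. Its highest value, in Aim2 KO replicate 1, was 2.07 times its lowest, in WT replicate 2, and the groups overlapped. The log2 difference was 0.16 (95% interval -0.45 to 0.76, limma adjusted p = 0.9998). It turned to -0.08 without Aim2 KO replicate 1 and to -0.04 without WT replicate 2.

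Gclc (ENSMUSG00000032350; chromosome 9, 77754535 to 77794485, plus strand) and Gclm (ENSMUSG00000028124; chromosome 3, 122245557 to 122269984, plus strand) encode the catalytic and the modifier subunit of glutamate-cysteine ligase, the rate-limiting enzyme of glutathione synthesis. Gclc was at 116, 159 and 98.0 FPKM in Aim2 KO and at 119, 86.8 and 99.7 FPKM in WT. Its level in Aim2 KO replicate 2 stood above the 5 others, and the other two Aim2 KO libraries lay within the WT range. Gclm was at 77.0, 70.2 and 54.1 FPKM in Aim2 KO and at 67.0, 51.1 and 51.8 FPKM in WT. Here Aim2 KO replicates 1 and 2 were above all WT libraries and Aim2 KO replicate 3 was within their range. The log2 difference was 0.27 for Gclc (95% interval -0.20 to 0.73) and 0.24 for Gclm (95% interval -0.16 to 0.63), with a limma adjusted p of 0.9998 for each. The Gclc difference was 0.42 without Aim2 KO replicate 3, 0.16 without WT replicate 2 and 0.08 when Aim2 KO replicate 2 was left out. That of Gclm was 0.13 without Aim2 KO replicate 1, 0.38 without Aim2 KO replicate 3 and 0.36 without WT replicate 1. The ratio of Gclc to Gclm, both per unit length, was 1.51, 2.26 and 1.81 in Aim2 KO and 1.78, 1.70 and 1.92 in WT, so the widest departures to either side fell within Aim2 KO. Gclm shares 296 exon bases with the opposite-strand gene Gm17494 (0.14 FPKM) and 244 with the pseudogene Gm6061, which is listed at 0.

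Txnrd1 (ENSMUSG00000020250; chromosome 10, 82859206 to 82897724, plus strand) encodes cytosolic thioredoxin reductase, a selenoprotein that keeps thioredoxin reduced. It was at 22.7, 30.9 and 24.1 FPKM in Aim2 KO and at 26.5, 26.3 and 27.3 FPKM in WT. The 3 WT libraries nearly coincided, and the Aim2 KO libraries lay on both sides of them. The log2 difference was -0.05 (95% interval -0.36 to 0.25, limma adjusted p = 0.9998), and 0.03 without Aim2 KO replicate 1. Srxn1 (ENSMUSG00000032802; chromosome 2, 152105516 to 152111376, plus strand) encodes sulfiredoxin, which repairs overoxidised peroxiredoxins. It was at 76.6, 100.2 and 71.7 FPKM in Aim2 KO and at 81.5, 60.1 and 70.7 FPKM in WT, with Aim2 KO replicate 2 alone above the WT range. The log2 difference of Srxn1 was 0.22 (95% interval -0.17 to 0.61, limma adjusted p = 0.9998), and 0.08 without Aim2 KO replicate 2.

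Hmox1 (ENSMUSG00000005413; chromosome 8, 75093591 to 75100596, plus strand) encodes heme oxygenase 1, which opens the heme ring and is also abundant in macrophages that clear red cells. It was at 76.0, 71.1 and 47.2 FPKM in Aim2 KO and at 75.9, 48.8 and 53.2 FPKM in WT. Aim2 KO replicate 1 and WT replicate 1 were level, and Aim2 KO replicate 3 was the lowest of the 6. The log2 difference was 0.12 (95% interval -0.40 to 0.65, limma adjusted p = 0.9998), and it was -0.01 without Aim2 KO replicate 1, -0.0027 without WT replicate 2 and -0.25 with array quality weights. The summed level of 12 macrophage and monocyte markers was 69.9, 156 and 174 FPKM in Aim2 KO and 75.7, 93.1 and 91.9 FPKM in WT. The part of macrophage content in the level of Hmox1 was not tested. Osgin1 (ENSMUSG00000074063; chromosome 8, 119434124 to 119446256, plus strand), an oxidative stress-induced growth inhibitor, had the lowest mean level of the members. It was at 10.5, 10.2 and 9.40 FPKM in Aim2 KO and at 8.87, 8.98 and 12.4 FPKM in WT, where replicate 3 stood apart. Its log2 difference was 0.01 (95% interval -0.32 to 0.34, limma adjusted p = 0.9998) and took either sign with the scaling.

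Of the 10 members 8 had a positive log2 difference, with a median of 0.17 over the 10, beside a median of 0.02 and 57.2% positive over all tested genes. This count was 7 of 10 with median-of-ratios scaling and with quantile normalization, where Osgin1 turned, 6 of 10 without Aim2 KO replicate 1, and 5 of 10 without WT replicate 2 and with array quality weights. The median was 0.07 without Aim2 KO replicate 1, 0.08 without Aim2 KO replicate 2, 0.05 without WT replicate 2, 0.32 and 0.31 without Aim2 KO replicate 3 and WT replicate 1, and -0.0080 with array quality weights. With the skeletal muscle level as a covariate it was 0.07, with 7 of 10 positive, and with the oral epithelium level it was 0.14, with 8 of 10 positive.

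By mean level per unit length over the 6 libraries the order was Nqo1 (174 FPKM), Nfe2l2 (138), Gclc (113), Srxn1 (76.8), Hmox1 (62.0), Gclm (61.9), Slc7a11 (43.4), Txnrd1 (26.3), Keap1 (12.7) and Osgin1 (10.1). Most neighbours in this order kept their order in 6 of 6 libraries. Nfe2l2 was above Gclc in 5 of 6, and Hmox1 was above Gclm in 3 of 6, so these last cannot be ranked. The full ranges of neighbours separated at 1 place, between Txnrd1 and Keap1.

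The highest Aim2 KO library exceeded the lowest by 1.09 to 1.92 times, depending on the member, while the ratio of group means ran from 0.965 to 1.22. Several members were high and low in the same libraries. For 7 of the 10, WT replicate 1 was the highest WT library, and for 7 Aim2 KO replicate 3 was the lowest Aim2 KO library. Nqo1, Hmox1, Gclc, Gclm, Srxn1 and Slc7a11 showed both, which is 6 of 10 members, and 8.57% of all tested genes did so (13.3% of the 5283 whose mean reached 10 FPKM). This order was noticed in the members' values, so the count is a description. Nfe2l2, Keap1, Txnrd1 and Osgin1 did not show it. In the 6 further redox lists described below, this order was held by 2 of 16 tested regulators of NRF2, 6 of 13 glutathione genes, 4 of 16 thioredoxin, peroxiredoxin and related genes, 13 of 19 quinone, carbonyl and conjugation enzymes, 6 of 8 genes of NADPH supply and 2 of 8 heme and iron genes. The median coefficient of variation over the 6 libraries was 17.7% for the members and 11.1% for those 5283 genes. With 475 to 13565 reads per member and library, the counting error at a member's mean read number was 1.02% to 4.24% of the level, below that member's coefficient of variation (5.03% to 27.0%) in all 10 cases. This covers counting error only, since reads without molecular identifiers are not independent molecules.

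The gene whose profile over the 6 libraries lay nearest to that of Nqo1 was Blvrb, a biliverdin and flavin reductase, followed by Gclm, Gsto1 (a glutathione S-transferase of the omega class), Esd (esterase D) and Slc2a9 (a urate transporter). The distance was the root mean square difference of log2(FPKM + 1) values after each gene was centred on its own mean. It was 0.044 for Blvrb, 0.055 for Gclm and 0.061 to 0.064 for the other three, where a flat profile lay at 0.26. Blvrb was at 145, 113 and 92.5 FPKM in Aim2 KO and at 123, 87.0 and 84.5 FPKM in WT, high and low in the same libraries as Nqo1. Of the 12143 genes compared, Hmox1 held place 83, Slc7a11 867, Nfe2l2 1070, Srxn1 1305 and Gclc 1544. Keap1, Osgin1 and Txnrd1 held places 5969, 6408 and 6639, farther from Nqo1 than a flat profile. All 5 nearest genes remained within the nearest 20 when any library was left out, when values were rescaled to TPM or by median of ratios, and with a pseudocount of 0.5. With a pseudocount of 0.1 Slc2a9, whose level was 0.92 to 1.93 FPKM, moved to place 29.

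**Figure D3:**
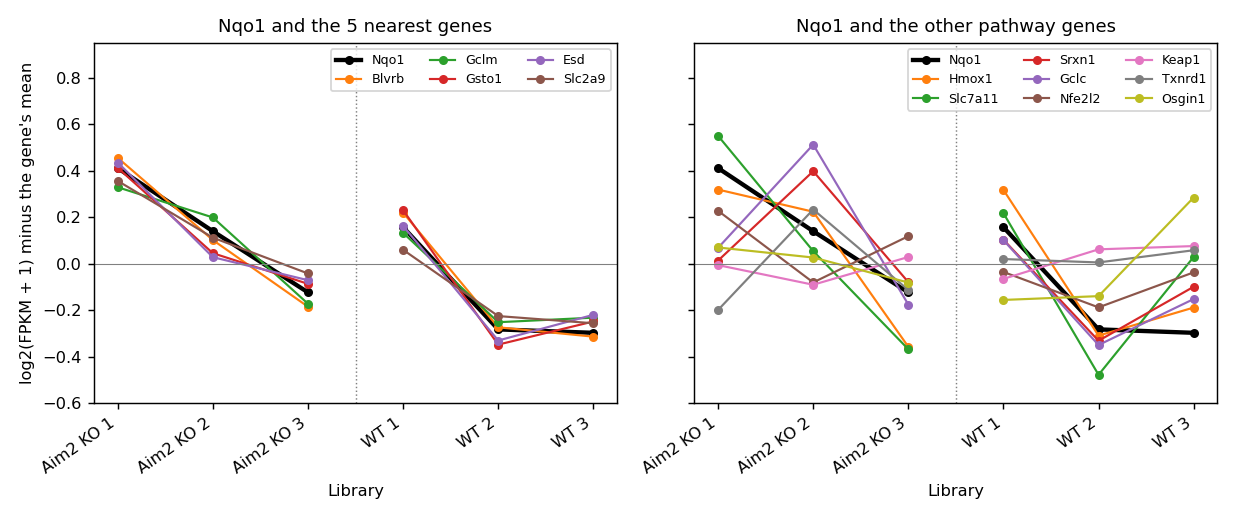
Profiles over the 6 libraries as log2(FPKM + 1) minus each gene's mean; lines join the points of 1 gene within a genotype and imply no order of replicates. Left, the 5 nearest genes follow Nqo1 (black), high in Aim2 KO replicate 1 and WT replicate 1; right, Hmox1 and Slc7a11 share much of this profile, Gclc and Srxn1 are highest in Aim2 KO replicate 2, and Keap1 stays near 0.

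Gclc and Srxn1, which shared the order described above, were both highest in Aim2 KO replicate 2 (159 and 100.2 FPKM) and lowest in WT replicate 2 (86.8 and 60.1 FPKM). Txnrd1 was also highest in Aim2 KO replicate 2, and Nfe2l2, Gclm and Slc7a11 were also lowest in WT replicate 2. In these 2 libraries the summed epithelial markers were 35534 and 36837 FPKM and the summed muscle markers 16156 and 16544 FPKM. WT replicates 1 and 3 had epithelial sums of 45535 and 45421 FPKM, with Nqo1 at 191 and 139 FPKM. Aim2 KO replicate 1 had both the highest epithelial sum (49112 FPKM) and the highest Nqo1 level (228 FPKM). Among the marker lists, the sum over 12 genes of cornifying epithelium was highest in WT replicate 1 within WT (9629 FPKM, against 8357 and 8091 FPKM) and lowest in Aim2 KO replicate 3 within Aim2 KO (6684 FPKM, against 8757 and 7468 FPKM), although only 4 of the 12 genes had that order themselves. The neutrophil list, carried by S100a8 and S100a9, which keratinocytes also express, had that order as well, with 6787, 1103 and 791 FPKM in Aim2 KO and 3499, 2304 and 2363 FPKM in WT, and 6 of its 8 genes had means under 1 FPKM. The part of any of these marker sums in the members' levels or order was not tested.

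Where RefSeq start sites could be read (GRCm38.p6, 8 of the 10 members matched by symbol), the 250 bases before each start were searched on both strands for the core letters of an antioxidant response element, TGACNNNGC, and for the related AP-1 site TGANTCA. The first occurred before 1 or more starts of Nfe2l2, Gclm and Txnrd1 and the second before Srxn1 and Osgin1, and no match overlapped a match of the other motif. Of all 27025 genes listed, 11.5% had the first and 7.82% the second before 1 or more of their starts. In Srxn1 and Osgin1 an AP-1 site is followed by GC on one strand (TGANTCAGC, a form searched after the sequences were read), as in 1.17% of all genes listed. In Srxn1 this is the strand of the gene and in Osgin1 the opposite strand. Both read TGAGTCAGC there, which differs from TGACNNNGC only by G for C after TGA and so was not counted as the first motif. No match was found before the starts of Nqo1, Keap1 and Slc7a11, which speaks only of these letters in this window. These letters are the kind of site that NRF2 and its MAF partners bind. The stretches around 4 of the matches are shown, with the match in capitals, on the strand of the gene, 5′ to 3′.
Gclm, chr3:122245393-122245461, plus strand, match on the opposite strand: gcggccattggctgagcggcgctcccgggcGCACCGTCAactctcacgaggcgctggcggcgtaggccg
Txnrd1, chr10:82859084-82859152, plus strand, match on the opposite strand: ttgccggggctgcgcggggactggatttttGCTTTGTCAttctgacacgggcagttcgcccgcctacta
Srxn1, chr2:152105449-152105515, plus strand: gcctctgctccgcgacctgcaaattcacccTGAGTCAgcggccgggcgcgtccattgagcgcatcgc
Osgin1, chr8:119437020-119437086, plus strand: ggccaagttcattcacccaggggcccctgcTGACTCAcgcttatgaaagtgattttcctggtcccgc
The Gclm match lay 126 to 134 bases before the start, that of Txnrd1 84 to 92, the Srxn1 match shown 39 to 45 and that of Osgin1 91 to 97. Another Srxn1 match, 96 to 102 bases before the start and not followed by GC, is not shown. Nor is the Nfe2l2 match, 232 to 240 bases before the start, whose stretch overlaps an exon of GENCODE M21. The RefSeq start used for Osgin1 lies downstream of 119434124, where the deposited gene begins, so its stretch lies inside the deposited gene span. No exon of GENCODE M21 overlapped the 4 stretches shown. Gclm, whose levels followed those of Nqo1, and Txnrd1, whose levels did not, both held the first motif, Txnrd1 not before all of its listed starts. The part of these motifs in the members' levels was not tested.

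Other genes of the pathway were read from 6 lists with 83 genes, of which 80 were tested. None of the 80 passed (limma adjusted p under 0.05), and with voom on recovered reads also 0 passed. Of the 80, 1 had an unadjusted limma p under 0.05, where 2.5% of all tested genes did. For 4 of the 80 all Aim2 KO libraries lay above all WT libraries, and for 0 they lay below, where 4.98% and 1.48% of all tested genes did so. The median log2 difference of the 80 was 0.08. It was positive for 48 of the 80, where 57.2% of all tested genes had a positive difference.

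**Figure D4:**
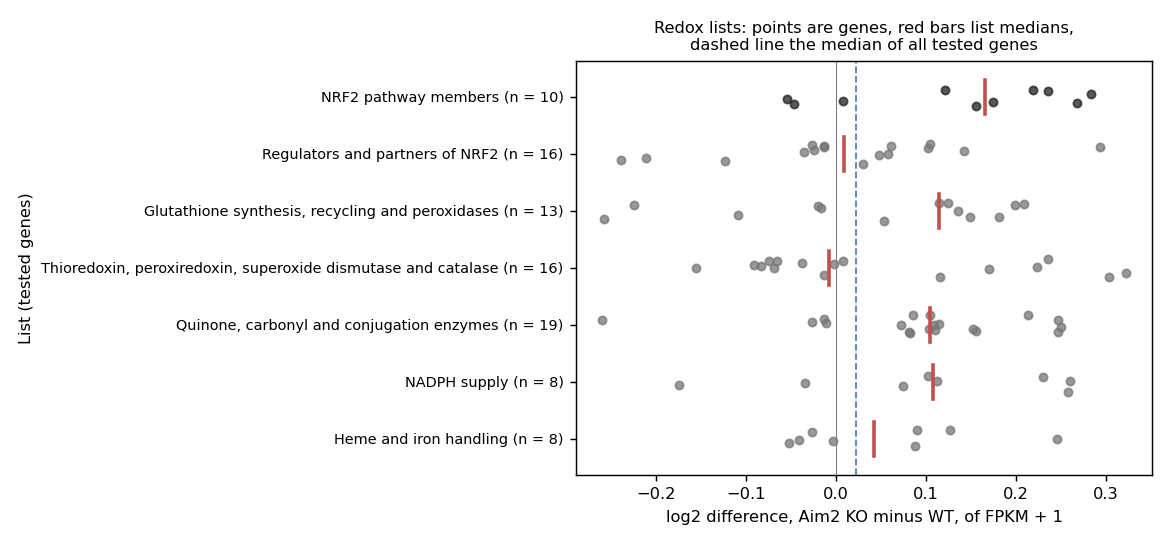
Log2 difference, Aim2 KO minus WT, of each tested gene (points) in the 10-member set and 6 further lists, with the list median (red bar) and the median of all 12144 tested genes (dashed line, 0.02). Points of every list lie on both sides of 0, within -0.26 to 0.32.

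Among 16 tested regulators and partners of NRF2, 8 had positive and 8 negative log2 differences (median 0.01). Bach1 encodes a heme-sensing repressor that competes with NRF2 for MAF partners and sites. It was at 8.82, 8.77 and 10.2 FPKM in Aim2 KO and at 7.26, 7.25 and 7.57 FPKM in WT, with every Aim2 KO library above every WT library. Its log2 difference was 0.29 (SE 0.10, unadjusted p = 0.022, limma adjusted p = 0.9998), and the adjusted p was 0.111 to 1 over the alternatives. The unadjusted limma p was 0.0863, 0.0652 and 0.0623 without Aim2 KO replicate 3, WT replicate 1 and WT replicate 2. The small MAF gene Maff was at 11.5 ± 0.722 FPKM in Aim2 KO and 13.6 ± 2.33 FPKM in WT, with overlapping groups, and Nfe2l3, a relative of NRF2, was at 3.49 ± 0.969 and 4.25 ± 0.664 FPKM.

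In the glutathione list 8 of 13 tested genes had positive differences (median 0.12). Chac1, a glutathione-degrading cyclotransferase, was at 5.39, 7.38 and 5.45 FPKM in Aim2 KO and at 5.29, 5.16 and 4.89 FPKM in WT, the groups not overlapping by a margin of 0.1 FPKM (log2 difference 0.20, SE 0.13, limma adjusted p = 0.9998). Without Aim2 KO replicate 2 the Chac1 difference was 0.072. Gss, the glutathione synthetase gene, was at 26.9 ± 4.90 against 23.5 ± 3.26 FPKM and the glutathione reductase gene Gsr at 22.5 ± 2.53 against 20.2 ± 2.75 FPKM, while Gpx4, the peroxidase of lipid hydroperoxides, was at 182 ± 43.0 against 209 ± 18.5 FPKM. These groups overlapped.

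In the list of thioredoxin, peroxiredoxin, superoxide dismutase and catalase genes 7 of 16 differences were positive (median -0.01). Prdx4, a peroxiredoxin of the endoplasmic reticulum, was at 17.8, 15.1 and 13.9 FPKM in Aim2 KO and at 13.6, 13.7 and 11.9 FPKM in WT, with groups that did not overlap (log2 difference 0.24, SE 0.12, limma adjusted p = 0.9998). The Prdx4 difference was 0.14 without Aim2 KO replicate 1. Cat, the catalase gene, was at 104 ± 20.1 against 83.3 ± 11.8 FPKM and Txn1, thioredoxin itself, at 416 ± 97.4 against 354 ± 65.8 FPKM, both with overlapping groups.

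Of 19 tested quinone, carbonyl and conjugation enzymes 15 had positive differences (median 0.11). None of the 19 had groups that separated, where 6.46% of all tested genes did. Aldh3a1, an aldehyde dehydrogenase of squamous epithelium, was the most abundant of the genes named here from this list, at 1407 ± 57.2 FPKM in Aim2 KO and 1190 ± 147 FPKM in WT. The microsomal transferase gene Mgst1 was at 67.6 ± 12.4 against 56.9 ± 11.9 FPKM and Ugdh, which makes UDP-glucuronate, at 20.0 ± 2.59 against 17.8 ± 1.55 FPKM.

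Of 8 genes of NADPH supply, the reductant that NQO1, thioredoxin reductase and glutathione reductase draw on, 6 had positive differences (median 0.11). G6pdx, the first enzyme of the pentose phosphate pathway, was at 104, 89.0 and 85.2 FPKM in Aim2 KO and at 80.9, 72.5 and 78.1 FPKM in WT. All 3 Aim2 KO libraries lay above all WT libraries (log2 difference 0.26, SE 0.12, limma adjusted p = 0.9998). The G6pdx difference was 0.17 without Aim2 KO replicate 1. Tkt, the transketolase gene, was at 129 ± 27.6 against 106 ± 8.51 FPKM with overlapping groups. In the heme and iron list 4 of 8 differences were positive (median 0.04), and Blvrb, described above beside Nqo1, had the smallest p of the list (log2 difference 0.25, SE 0.21, limma adjusted p = 0.9998).

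Beside these lists, 9 of the 10 tested pan-leukocyte markers had groups that did not overlap, with Aim2 KO above WT. Of all tested genes 4.98% did so. Among the 10 NRF2 pathway members it was 0, which is near that share and so no trait of the members. The part of leukocyte content in any member's level was not tested.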

How the data were processed

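Total RNA was extracted from tongue with a column kit and sequenced by a company, per the labels' protocols. The authors deposited FPKM values, 1 column per library, without pooling. The sources used here name no aligner, counter, strand setting, genome build or annotation. Multiplied by gene length, the FPKM values were whole multiples of a fixed step in each library (to 0.01 read, for 100% of values above 0), which gave back read counts. Because FPKM scales to the library total, abundant genes shift all others.

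Libraries were grouped by genotype and mapped to columns by library name. Computed here: a trended limma fit (limma 3.58.1 in R 4.3.3) of log2(FPKM + 1) for the 12144 genes whose mean reached 1 FPKM, two-sided, Benjamini-Hochberg adjusted, threshold 0.05, genotype as the only term. It was checked on simulated libraries. Named genes are the 10 members, up to 4 per list by smallest p, and the 5 genes nearest to Nqo1. Members and lists were chosen with earlier results of these data known. The 20 alternatives covered pseudocount, filter, scaling, weights, voom on recovered reads, the replicate block, tissue covariates and leaving out each library. Promoters came from RefSeq (GRCm38.p6). Of the members' coordinates 5 of 10 are identical in GENCODE M21.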

Additional observations from a re-analysis of the deposited data

How the results depend on the processing

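Under all 20 alternatives 0 of the 10 members and 0 of the 80 further pathway genes passed. The count over all genes (1 higher, 0 lower) was 0 higher with no filter or one at 0.1 FPKM, after rescaling to TPM and with the replicate block, 65 higher and 3 lower with array quality weights, and 12 higher and 1 lower with the skeletal muscle covariate. Leaving out 1 library gave 0 to 12 higher and 0 to 2 lower, the most without Aim2 KO replicate 1. Of 200 member values 19 changed sign. With array quality weights these were Keap1 (0.0019), Hmox1 (-0.25), Gclm (-0.022), Slc7a11 (-0.23) and Osgin1 (-0.018), and among the further genes Gss (-0.018), Prdx1 (-0.00020), Pgd (-0.072) and Blvrb (-0.052). With the skeletal muscle covariate they were Txnrd1 (0.0092), Slc7a11 (-0.019) and Osgin1 (-0.011), and Osgin1 was -0.023 with median-of-ratios scaling and -0.022 with quantile normalization. Without 1 library, Hmox1 turned to -0.0067 at the lowest and 0.33 at the highest, Slc7a11 ran from -0.080 to 0.38, Txnrd1 from -0.18 to 0.032 and Osgin1 from -0.068 to 0.15, and Fech from -0.021 to 0.26. The cause was not tested. The deviations of same-numbered libraries correlated across genes at 0.35, 0.46 and 0.030 for numbers 1 to 3, and Aim2 KO replicate 3 correlated best with WT replicate 2, so the numbers were not taken as pairs. With the replicate block 0 members passed and the unadjusted p of Nqo1 was 0.0434. With 3 libraries a group the 95% intervals were as wide as -0.45 to 0.76 (Slc7a11).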
